A study of Pyrus communis with 12 samples.

Results

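In the flesh of 'Abate Fetel' pears, 41 of the 45217 genes in the count table stood high at the first of 4 harvesting stages and then kept a lower, nearly level expression until the last. They were chosen on the measured values. Expression was taken as CPM, the count of a gene divided by the total of its library and scaled to a total of 1000000 counts. A gene was included when its mean in H1 was at least 2 CPM, when its lowest H1 library was at least 1.3 times its highest library of H2, H3 and H4, and when the highest of the 3 later stage means was under 1.4 times the lowest. The fall after H1 and the level course after it are therefore how the genes were picked and not findings, and no p-value is given for them.

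The RNA came from Pyrus communis, the European pear, cultivar 'Abate Fetel', sampled at harvest without any treatment. H1, H2, H3 and H4 are harvest weeks 1, 2, 3 and 4, each with 3 biological replicates and a single RNA-seq library per replicate (12 libraries in all). According to the methods of the study the fruit of each stage were picked in one orchard and then selected for a similar chlorophyll absorbance index, so that each stage is a chosen class of fruit from a single harvest, and the stage and the date of picking cannot be told apart. The data describe 1 cultivar, and the methods place the stages at uneven intervals, with more than a week between H2 and H3. The labelled tissue could not be checked against marker genes.

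Pear is a climacteric fruit, in which ripening goes along with a rise of ethylene production, and the flesh then softens, loses acidity and forms aroma volatiles. Fruit of European pear mature on the tree without softening fully and complete ripening after picking, often only after a period of cold. The last weeks on the tree are known for the end of cell expansion, a loss of chlorophyll and the breakdown of starch. Auxin is a hormone known to delay ripening, while the study proposes that it also takes part in starting it. The 41 genes are given here by the identifier of the count table, and no role is assigned to them. For 27 of them the study lists a database sequence, but none could be matched to a name in the sources used. The study's clusters of differentially expressed genes include some members, among them PCP002226, PCP012056 and PCP012387.

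Library totals ranged from 7776419 to 10675582 counts, with the 3 H4 libraries the deepest (9587843 to 10675582) and those of H1 between 7778587 and 9201671. A level of 2 CPM thus rested on a small number of reads, and low members are described with their counts. Counts were not divided by gene length, so that CPM values can be compared between stages for a gene but not between genes. The libraries do not keep the strand according to the labels, and reads of overlapping genes or of near-identical copies cannot be separated. In these bulk samples fewer cells of a type and less RNA per cell cannot be told apart.

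Added together, the 41 genes took 0.521% of the counts in H1, 0.297% in H2, 0.295% in H3 and 0.286% in H4. Their summed level was between 4926 and 5457 CPM in the H1 libraries, between 2925 and 3069 in H2, between 2928 and 2972 in H3 and between 2718 and 3026 in H4. The later libraries overlapped with one another and lay far under those of H1. Only 3 genes made up 65.6% of the H1 sum, and the sum mainly follows them.

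The mean of H1 divided by the average of the 3 later stage means, called the step below, ran from 1.48 to 2.80 with a median of 1.86. A step of at least 2 was reached by 15 genes, and 11 genes had a step under 1.7. On the scale of log2(CPM + 1), which compresses low values, the step was 0.57 to 1.38 with a median of 0.76. The lowest H1 library exceeded the highest later library 1.38 times in the median gene and 1.99 times at most, and the highest later stage mean was 1.05 to 1.399 times the lowest (median 1.22). Of the 23155 genes that reached 1 CPM in 3 or more libraries, a group that holds all 41, 5.10% had all H1 libraries above all later ones and 0.687% had them above by at least 1.3 times.

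**Figure D1:**
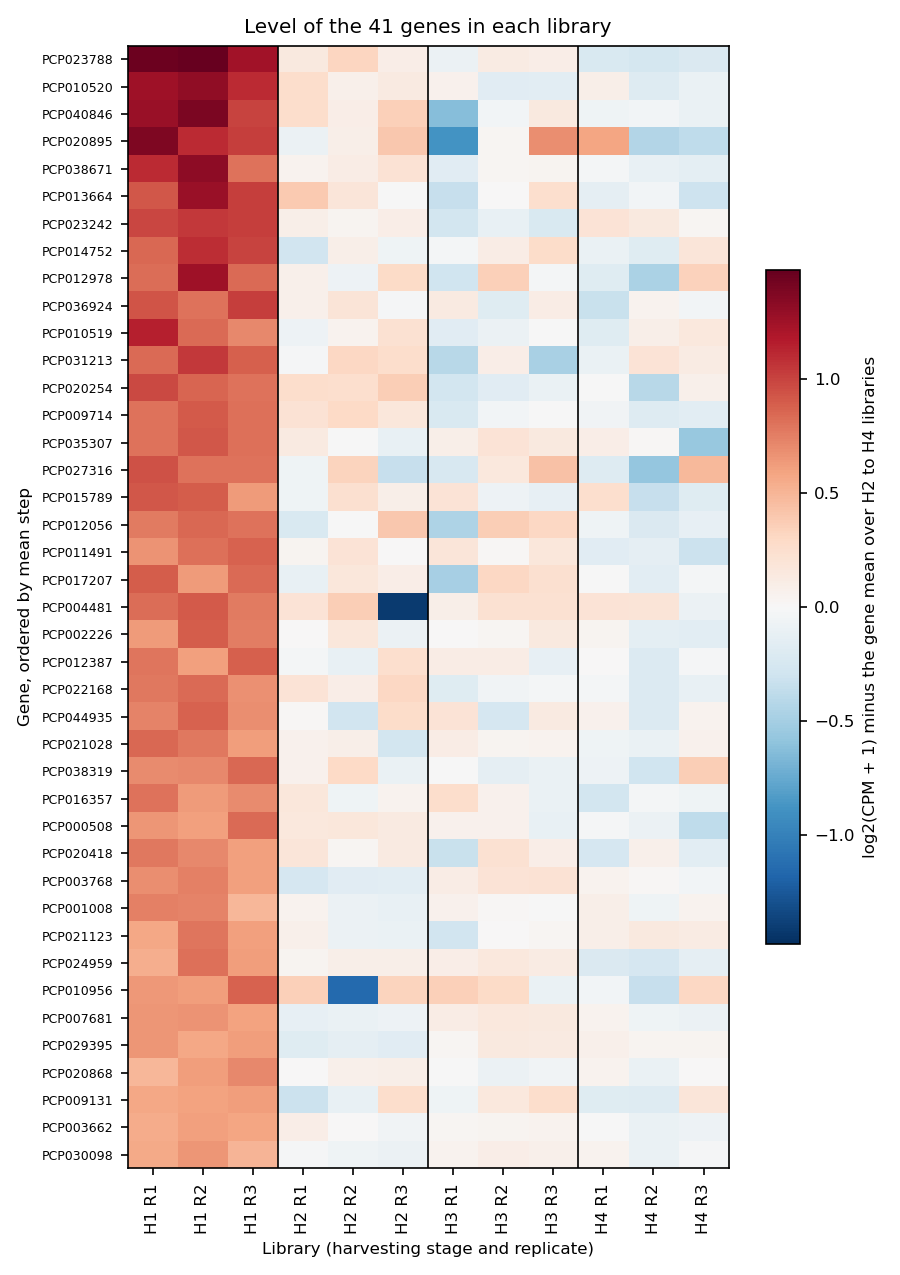
Heat map of the 41 genes (rows, ordered by the step on log2(CPM + 1)) in the 12 libraries (columns, by harvesting stage and replicate R1 to R3). The colour is log2(CPM + 1) minus the mean of the gene over the 9 libraries of H2 to H4, red above and blue below that mean. The H1 columns are red in all rows, as the selection demands, and the steps on this scale run from 1.38 at the top to 0.57 at the bottom. The 2 dark blue cells are the libraries with a count of 0 for PCP004481 (H2 R3) and PCP010956 (H2 R2).

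The genes with the most reads came first in the sum. PCP010520 was measured at 1695, 1775 and 1531 CPM in H1, at 851, 749.8 and 779.9 in H2, at 747, 633 and 642 in H3 and at 757, 626 and 668 in H4. It had the most reads of all members and also one of the widest steps, from 1667 ± 124 CPM (SD, n = 3) to 683 ± 66.9 in H4, with a step of 2.33. The H2 libraries lay above all those of H3, whereas H3 and H4 overlapped. PCP030098 was at 1097, 1168 and 1054 CPM in H1, at 734, 713 and 702 in H2, at 773, 799 and 788 in H3 and at 774, 695 and 735 in H4. Its step of 1.48 was the smallest of the 41, and the H4 libraries overlapped with both H2 and H3.

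PCP001008 had 682, 676 and 573 CPM in H1, then 419, 383 and 376 in H2, 425, 411 and 405 in H3 and finally 431, 388 and 421 in H4. It was the flattest of all members after H1, with a ratio of 1.05 between its later stage means, which overlapped throughout. Both PCP030098 and PCP001008 keep the shape but not the required separation when libraries are scaled by the trimmed mean of M-values (TMM, which offsets differences in RNA composition). The lowest H1 library was then 1.295 and 1.26 times the highest later one, against the required 1.3. The same scaling moves PCP015789, PCP020868, PCP021123, PCP024959, PCP027316 and PCP038319 below that limit, so that 33 of the 41 met all criteria on both scales.

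Other genes with many reads differed in their course after the step. PCP029395 went from 282, 266 and 274 CPM in H1 to 158, 162 and 159 in H2, and was at 182, 198 and 197 in H3 and at 188, 184 and 184 in H4. PCP007681 went from 188, 189 and 180.1 CPM to 109, 111 and 112, followed by 128.04, 132 and 131 in H3 and by 123, 113 and 111 in H4. In both genes H2 was the lowest stage mean and its libraries lay under all those of H3. PCP009714 took the opposite course, with 149.9, 161 and 151 CPM in H1, against 98.9, 104 and 96.1 in H2, 72.5, 82.7 and 85.2 in H3 and lastly 82.3, 74.4 and 76.7 in H4. Here H2 stood above all libraries of H3 and H4, which overlapped.

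PCP023242 combined a large step with the tightest H1 libraries. It gave 148, 153 and 151 CPM in H1 (150.3 ± 2.57, SD, n = 3, a coefficient of variation of 1.71%), 78.6, 75.9 and 78.9 in H2, 60.9, 68.1 and 63.0 in H3 and finally 85.1, 81.4 and 75.0 in H4. The H3 libraries were lower than those of either neighbouring stage, and H2 and H4 overlapped. PCP003662 was nearly as tight, at 66.5, 69.0 and 68.0 CPM in H1, and flat afterwards, at 45.7 ± 2.40 in H2, 46.5 ± 0.420 in H3 and 43.3 ± 1.502 in H4 (SD, n = 3). PCP044935, the other member among the 3 flattest, went from 8.29 ± 0.650 CPM in H1 to 4.52 ± 1.06, 4.62 ± 0.884 and 4.37 ± 0.540.

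The widest step of all belonged to PCP023788. Its libraries read 24.9, 25.4 and 21.5 CPM in H1, then 9.51, 10.8 and 9.15 in H2, 7.95, 9.34 and 9.14 in H3 and finally 7.09, 6.93 and 7.21 in H4, a step of 2.80. The level went on down within the allowed band, from 9.82 ± 0.869 CPM in H2 to 7.08 ± 0.138 in H4 (SD, n = 3), and the H4 libraries lay under all those of H2 and H3. PCP040846 was at 21.1, 22.9 and 17.2 CPM in H1, at 9.88, 8.74 and 10.6 in H2, at 4.89, 7.86 and 9.02 in H3 and at 7.72, 7.87 and 7.51 in H4. Among the later stages its H3 libraries were the most scattered, and they enclosed those of H4.

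PCP038671 had 46.0, 53.9 and 37.2 CPM in H1, against 21.8, 22.6 and 24.5 in H2, 18.6, 21.4 and 21.5 in H3 and lastly 20.5, 19.3 and 18.9 in H4. The H1 libraries differed among themselves by more than the 3 later stage means did. PCP013664 was at 6.90 ± 1.03 CPM in H1, 3.28 ± 0.589 in H2, 2.72 ± 0.744 in H3 and 2.35 ± 0.299 in H4 (SD, n = 3). PCP020895, at 6.17, 4.89 and 4.58 CPM in H1, was the least steady of the wide steps, with 1.59, 1.93 and 2.61 in H2, 0.489, 1.80 and 3.44 in H3 and lastly 3.13, 1.03 and 1.12 in H4. Behind the last stand between 4 and 30 counts in each later library, and all 3 later stages overlapped.

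**Figure D2:**
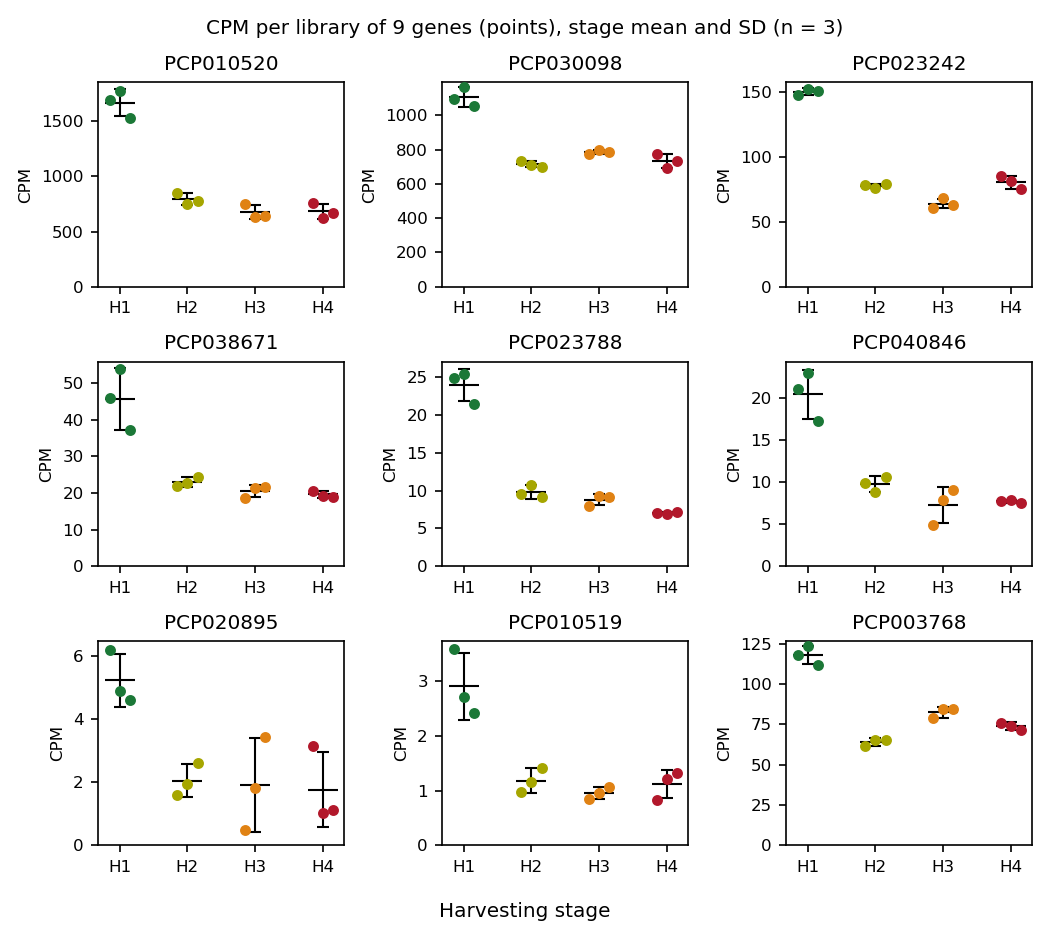
CPM (vertical axes, each from 0) of 9 of the genes at the 4 harvesting stages, with a point per library, a horizontal bar for the stage mean and error bars of 1 SD (n = 3). PCP010520 went from 1667 CPM in H1 to 683 in H4 and PCP023788 from 24.0 to 7.08, while PCP003768 was lowest in H2 (64.1 CPM), and the later libraries of PCP020895 scattered from 0.489 to 3.44 CPM.

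Wide steps were mostly found among genes with few reads. The 10 members under 5 CPM in H1 had a median step of 2.17, and 7 of them had a step over 2. The median step was 1.91 in the 7 members between 5 and 10 CPM, 1.78 in the 14 between 10 and 100 CPM and 1.59 in the 10 above 100 CPM. Of these last, PCP010520 and PCP023242 were the ones over 2. Counting error is larger at few reads, and the criteria ask the lowest H1 library to clear the highest of 9 later ones; their part in this order was not tested. On the log2(CPM + 1) scale the median step was 0.75 in the members of at least 10 CPM and 0.78 in those under 10 CPM, a split chosen after seeing the data.

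Among the members under 5 CPM the counts ran from 19 upwards in H1 libraries and from 0 to 27 in later ones. PCP010519 had 28, 25 and 19 counts in H1, then 8, 9 and 12 in H2, 7, 9 and 9 in H3 and finally 8, 13 and 13 in H4. With 3.60, 2.72 and 2.42 CPM its H1 libraries were the most scattered of all 41 in relative terms, with a coefficient of variation of 21.1%. Its identifier directly precedes that of PCP010520. Whether the genes are neighbours or share reads was not tested.

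PCP014752 dropped from 26, 38 and 30 counts in H1 to 8, 12 and 11 in H2 and had 11, 15 and 16 in H3 and 12, 12 and 17 in H4, a step of 2.65. PCP004481 had 29, 37 and 28 counts in H1 and 17, 19 and 0 in H2, while the H3 and H4 libraries had 15 to 22. PCP010956 had 19, 22 and 24 counts in H1 and 15, 0 and 15 in H2, with 8 to 17 in H3 and H4. The H2 mean of the last 2 genes was pulled down by that single library at 0. The other H2 libraries of PCP004481 were at 2.07 and 2.44 CPM, against at most 2.14 in H3 and H4. Those of PCP010956 were at 1.83 and 1.78 CPM, against a mean of 1.21 in H4, so that its plateau rests on the library at 0. PCP009131, the member with the lowest CPM in H1, had 19, 23 and 20 counts in H1 and 7 to 16 in the 9 later libraries.

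The highest and the lowest H1 library differed between members. Replicate 2 was the highest of the 3 in 22 members, replicate 1 in 11 and replicate 3 in 8, and replicate 3 was the lowest in 17, replicate 1 in 16 and replicate 2 in 8. The same counts were not made over all genes tested, and nothing is read from them. On log2(CPM + 1) the median deviation of replicates 1, 2 and 3 from the H1 mean was -0.011, 0.039 and -0.043 in the members. Over all genes tested it was 0.013, -0.009 and 0.006. The coefficient of variation among H1 libraries was 7.84% in the median member. PCP012978, with 8.10, 11.2 and 8.15 CPM in H1, was the second most variable at 19.4%, and there replicate 2 alone stood high.

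The course after H1 was level by choice, yet within the permitted band the members did not all behave alike. H4 was the lowest of the 3 later stage means in 23 members, and H2 and H3 were each the lowest in 9. H3 was the highest in 20, H2 in 19 and H4 in 2. On the CPM scale the mean was lower at each following stage in 12 members, among them PCP023788, PCP038671 and PCP009714, although with TMM scaling the fitted log2 change from H3 to H4 was 0.02 in PCP038671 and 0.05 in PCP009714. No member had a higher CPM mean in H3 than in H2 and again in H4. The median ratio of H3 to H2 was 0.991. The H4 to H3 ratio was 0.922 in the median member and 0.935 over all genes tested, and with TMM scaling it was 0.980 in the members, with H4 the lowest in 16 of them. On the CPM scale the lower level in H4 was near that of the whole table.

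For reference, the 41 genes were looked up in a test of all 23155 genes between stages (edgeR, quasi-likelihood F-test with TMM scaling, Benjamini-Hochberg adjusted p under 0.05). At H1–H2 33 members were called lower, where 3.17% of all genes tested were. At H1–H3 34 members were called lower (5.18% of all genes), and at H1–H4 39 (16.4%). No member was called higher in these 3 comparisons, where 3.94%, 6.79% and 18.1% of all genes tested were. As the selection used the same contrast, nothing is read from these counts. The comparisons also share the H1 libraries. The median log2 fold change of the members was -0.88 at H1–H2, -0.86 at H1–H3 and -0.92 at H1–H4, and the medians of all genes tested lay between 0.00 and 0.01.

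The 8 members not called at H1–H2 were PCP020895, PCP027316, PCP012056, PCP017207, PCP004481, PCP038319, PCP010956 and PCP009131, all under 10 CPM in H1. PCP012056 illustrates them, with 7.07, 7.50 and 7.26 CPM in H1 against 3.05, 3.73 and 5.23 in H2, and a log2 fold change of -0.87 with a standard error of 0.26. PCP004481 and PCP010956, the 2 genes with a library at 0, were not called at H1–H4 either.

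Between the later stages some members passed the same test. At H2–H3 7 were called (17.1% of the members and 5.34% of all genes tested), at H3–H4 3 (7.32% and 20.5%) and at H2–H4 7 (17.1% and 28.0%). The selection used these stages, and nothing is read from the counts. Lower in H3 than in H2 were 4 members (2.36% of all genes tested), PCP020254, PCP009714, PCP022168 and PCP023242, with log2 fold changes of -0.48, -0.32, -0.30 and -0.28. Higher in H3 were 3 (2.98%), PCP003768, PCP029395 and PCP007681, with 0.37, 0.27 and 0.24. The calls at H2–H3 came down to 2 without H2 replicate 1, to 4 without H2 replicate 2, to 3 without H2 replicate 3 and to 3 without H3 replicate 1. Over all genes tested they came down as well, from 1236 to 708, 722, 687 and 762 in these settings. None of the 4 lower calls was left without H2 replicate 1 or without H3 replicate 1.

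PCP003768 had the largest rise after H2 among those called. It had 118, 123 and 112 CPM in H1, against 61.6, 65.2 and 65.6 in H2, 78.8, 84.6 and 84.7 in H3 and lastly 76.1, 74.2 and 71.4 in H4. The H2 libraries were below all those of H3 and H4, and the level in H3, 82.7 ± 3.39 CPM (SD, n = 3), remained far below H1. PCP020254, the member nearest to the limit of the plateau, went the other way, with 59.8, 54.9 and 53.0 CPM in H1, then 35.9, 35.7 and 38.6 in H2, 24.6, 26.4 and 27.8 in H3 and finally 29.8, 22.3 and 31.6 in H4. All H2 libraries were above those of H3 and H4, so that its level came down again after H2.

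At H3–H4 PCP023242 and PCP021123 were called higher (11.0% of all genes tested), by 0.42 ± 0.06 and 0.29 ± 0.09 on the log2 scale (standard errors). PCP024959 was called lower (9.51%), by -0.24 ± 0.07. That call was lost with DESeq2, without the filter on low counts and without any one of the H3 or H4 replicates. It was also lost without H2 replicate 2 or 3, which are not part of the comparison. With total-count scaling 4 members were called at H3–H4, 3 of them lower, where 5053 of all genes tested were called in either direction. PCP021123 was at 53.0, 65.3 and 66.3 CPM in H3 and at 68.9, 71.9 and 71.0 in H4, and the stages did not overlap. PCP024959 was at 64.2, 67.2 and 65.3 CPM in H3 and at 51.6, 50.6 and 54.6 in H4, again without overlap. Both genes miss the separation of 1.3 times under TMM scaling. A single call was left at H3–H4 when H2 replicate 2 or 3, H3 replicate 1 or 3, or H4 replicate 1 or 3 was left out, as it was without the filter on low counts, and H3 replicate 1 is the low library of PCP021123. Over all genes tested the calls in these settings numbered 3242 to 4443, against 4741 with the filter and all libraries.

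PCP031213 also had a higher mean in H4 than in H3, at 9.03, 11.6 and 11.2 CPM in H2, 6.60, 9.87 and 6.29 in H3 and then 8.45, 10.68 and 10.05 in H4. Its stages overlapped and it was not called. The fall of PCP011491, from 50.1 ± 3.14 CPM in H3 to 39.9 ± 2.72 in H4 (SD, n = 3), was not called either, although the libraries of the stages did not overlap. At H2–H4 PCP023788, PCP020254, PCP009714 and PCP022168 were called lower (13.3% of all genes tested) and PCP029395, PCP003768 and PCP007681 higher (14.7%). With total-count scaling 9 were called in that comparison, 7 of them lower. DESeq2 called 3 of the 41, and 4 were left without any one of the H2 replicates and 3 without H4 replicate 2. Over all genes tested the calls at H2–H4 were 6481 with TMM scaling, 6784 with total-count scaling and 5491 with DESeq2. They were 5161 to 5479 without an H2 replicate and 5225 without H4 replicate 2.

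A level course after H1 was the less common one among genes that separated in this way. With the same minimum in H1 and the same 1.3 times, 158 genes qualified, and 41 of them (25.9%) met the plateau. Among the other 117, H4 was the lowest later stage in 95, H2 in 12 and H3 in 10, and the mean fell at every stage in 73. Their median ratio between the highest and the lowest later stage mean was 2.12, leaving out 11 genes with a later stage mean of 0. The reverse pattern, all H1 libraries lower by the same factor and then a plateau, was found in 37 of 112 separating genes (33.0%), with a median fold of 1.75 and a median plateau ratio of 1.23. There the lowest later stage mean, and not the mean of H1, had to reach 2 CPM. The shares of 25.9% and 33.0% thus rest on unlike sets of genes. These numbers are descriptions of lists built on the same values.

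**Figure D3:**
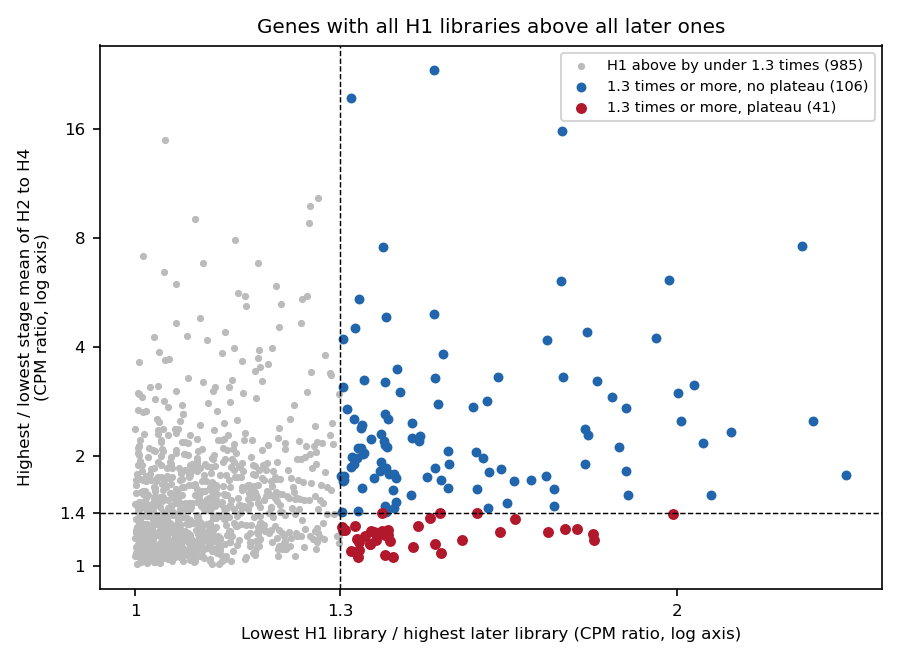
Genes in which all 3 H1 libraries exceeded all 9 later ones, by the ratio of the lowest H1 to the highest later library (horizontal, log axis) and by the ratio of the highest to the lowest later stage mean (vertical, log axis), with dashed lines at 1.3 and 1.4. The 41 genes (red) lie in the lower right, next to 106 genes without a plateau (blue; 11 more with a later stage mean of 0 have no finite ratio) and 985 with a smaller separation (grey). Most red points are near the limit of 1.3, with a median of 1.38.

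The limits cut through a continuous range. Just inside the limit of 1.3 were PCP010956 (1.303) and PCP024959 (1.305), and just outside it PCP018787 (1.298) and PCP007825 (1.297). At the plateau limit of 1.4, PCP013664 (1.397) and PCP020254 (1.399) were inside and PCP013209 (1.403) and PCP016435 (1.409) outside. The lowest H1 means were those of PCP009131 with 2.496 CPM and PCP010956 with 2.63 CPM in H1, and PCP023639 with 1.75 CPM and PCP002773 with 0.565 CPM met the other criteria at a lower level. PCP018787 had stage means of 38.3, 26.1, 23.7 and 22.6 CPM from H1 to H4.

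The only values that the choice of genes did not use are those of libraries left out of it. The selection was therefore repeated without all 4 libraries of a replicate number. On the 8 libraries without replicate 1, 71 genes were chosen, 33 of them among the 41. In 64 of the 71 (90.1%) the H1 library left out was above the 3 later libraries left out, against 30.6% of all genes tested. Without replicate 2 this held in 71 of 90 genes (78.9% against 28.6%), and without replicate 3 in 76 of 92 (82.6% against 29.6%). In most of the genes chosen again, and not in all, the H1 library left out was thus the highest. The 33, 34 and 33 of them that are among the 41 met this by their own selection, which used all 12 libraries. The shares therefore describe the repeated choice and are no support for the 41.

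The size of the step was smaller in the left-out libraries. The median fold was 1.80 in the libraries used and 1.61 in those left out for replicate 1, 1.81 and 1.67 for replicate 2, and 1.80 and 1.51 for replicate 3. A separation of at least 1.3 times was met in the left-out libraries by 46, 53 and 49 of the chosen genes, and by 6.40%, 6.43% and 5.37% of all genes tested. The plateau by itself was about as frequent as in the whole table or rarer. It was met by 62.0% of the chosen genes against 62.3% of all genes tested for replicate 1, by 36.7% against 57.0% for replicate 2 and by 58.7% against 57.1% for replicate 3, with 1 library per stage in each case.

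**Figure D4:**
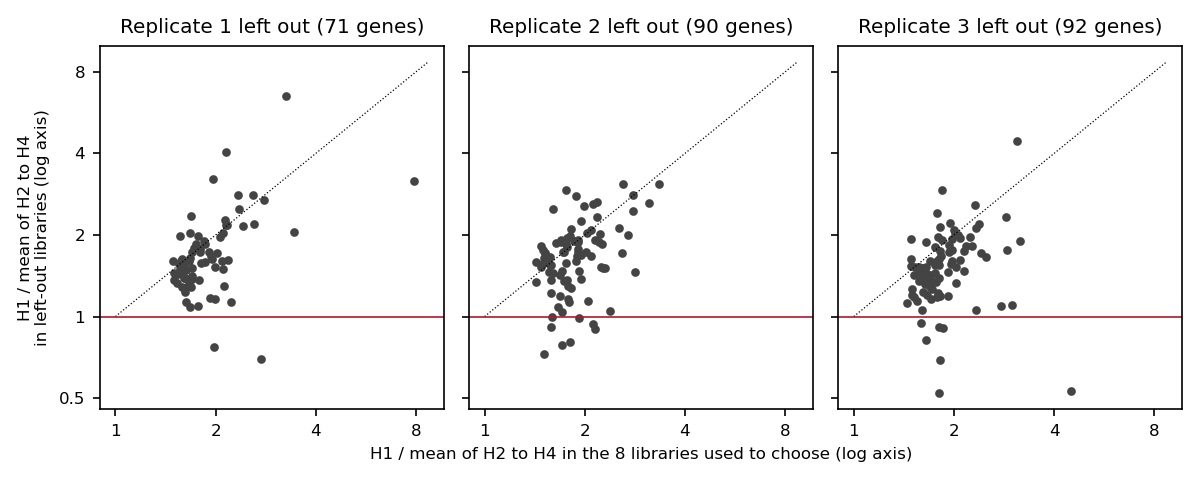
Ratio of H1 to the mean of H2 to H4 in the 8 libraries used to choose genes (horizontal, log axis) and in the 4 libraries left out (vertical, log axis), with a point per gene and a panel per replicate number left out (71, 90 and 92 genes, of which 1 of the 90 had an H1 count of 0 and cannot be drawn). The red line marks no step and the dotted line equal steps. The left-out ratio was under 1 in 2, 9 and 7 genes, and its median, 1.61, 1.67 and 1.51, was below that of the libraries used.

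A list of 42 pear genes named in the study, from ethylene, auxin, cell wall, aroma and transcription factor categories and including the reference gene of the quantitative PCR, held none of the 41. Of these, 38 were tested and none had all H1 libraries 1.3 times above the later ones, which only 0.687% of all genes tested did, so that nothing particular to the list is read from its absence. The plateau was met by 6, none of which was highest in H1 by that margin. PCP026151, a pectate lyase (an enzyme that cleaves pectin in the cell wall), rose from 137 ± 7.78 CPM in H1 to 164 ± 13.5 in H2 and was at 177 ± 5.76 and 179.9 ± 8.14 afterwards (SD, n = 3). PCP012166, an auxin-responsive factor of the IAA-like kind, was at 87.5 ± 4.84, 119.8 ± 2.64, 157 ± 11.4 and 151 ± 3.32 CPM.

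The other 4 stayed within the limit of the plateau after H1. PCP005843, a transcription factor named after APETALA2, had stage means of 151, 177, 176 and 177 CPM. PCP016523, a xyloglucan endotransglucosylase/hydrolase that remodels cell wall polymers, had 37.6, 42.6, 43.8 and 43.8 CPM. PCP022634, an auxin response factor, had 85.5, 83.9, 77.1 and 64.5 CPM, and PCP030439, the reference gene of the quantitative PCR, had 44.0, 41.6, 42.6 and 36.2 CPM. In none of the 4 did the H1 libraries exceed all later ones.

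Some named genes with their highest mean in H1 had a lower mean at each later stage. PCP036703, an auxin-induced protein, was the only one of the 38 tested that was called lower at H1–H2 (3.17% of all genes tested), and 9 were called higher (3.94%). It was at 39.0, 46.8 and 44.0 CPM in H1, against 32.2, 34.7 and 33.1 in H2, 27.1, 27.0 and 30.04 in H3 and lastly 21.9, 20.6 and 21.4 in H4, and each stage lay below the one before without overlap. Its log2 fold change at H1–H2 was -0.38 with a standard error of 0.07 (edgeR, adjusted p = 0.0081), and the highest later stage mean was 1.57 times the lowest. PCP011926, a COBRA-like protein of the cell wall, was at 95.5 ± 7.38 and 93.4 ± 2.95 CPM in H1 and H2 and at lower values later, 72.8 ± 2.26 in H3 and 56.6 ± 2.63 in H4 (SD, n = 3). PCP021016, the auxin efflux carrier PIN3, had 5.66, 4.53, 3.32 and 2.13 CPM from H1 to H4.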

How the data were processed

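Flesh RNA of 3 biological replicates at each of 4 harvesting stages was sequenced as single-end libraries. Reads were trimmed, mapped with HISAT2 and quantified with StringTie by the authors. Versions, the genome build and the way to whole counts are not given in the sources used here, and the labels name another kit, sequencer and read length than the methods of the study. The deposited table is titled FPKM, but its values are whole numbers whose sums differ between libraries. The deposited values were therefore taken to be raw counts, not normalized by the authors, which the sources used here do not state, and all CPM rest on this reading. The deposited stage mean signal equals the mean of the 3 libraries in all 4 columns and was not used.

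CPM were computed from column sums. Members and gene lists were chosen with earlier results of these data known. Tests used edgeR 4.0.16 in R 4.3.3 on all 12 libraries (TMM scaling, quasi-likelihood, genes of at least 1 CPM in 3 or more libraries, Benjamini-Hochberg threshold 0.05), with DESeq2 1.42.0 as an alternative. Standard errors were approximated from the fold change and the F statistic. The fits were tested on simulated data, in which 200 genes with many counts were raised or lowered in H1 by a fixed factor. The median change that edgeR estimated for them was 1.03 on the log2 scale. Of the 200 genes, edgeR found 97.5%. Steps as small or counts as low as those of many members were not simulated. P-values compare a difference between stages with the spread among the libraries of a stage. They do not cover other orchards or seasons. Tables and plots were made in Python 3.11.15 with pandas 2.3.3 and matplotlib 3.10.9. Alternatives were other scalings, filters and limits, a replicate block, only the 6 libraries compared, a pseudocount of 0.5 and the omission of libraries. Named by rule were the 6 members highest in H1, the 6 with the widest step on log2(CPM + 1), those nearest to each limit, the 2 with the largest and the 2 with the smallest variation in H1, the 3 flattest and 3 least flat, and the 3 that rose most and the 3 that fell most from H3 to H4. Other members were named after their values were seen. Names of other genes are those given by the study.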

Additional observations from a re-analysis of the deposited data

How the results depend on the processing

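The number of genes meeting the criteria was 41, and 39 with TMM scaling (33 shared) or median-ratio scaling (32 shared). A separation of 1.2 times gave 82 genes, 1.5 times 10 and 2 times 0, and a minimum of 10 CPM in H1 gave 24. Leaving out libraries gave 39 to 92 genes, with 68 without H1 replicate 3 and 71, 90 and 92 without replicate 1, 2 and 3 in all stages. The median step on log2(CPM + 1) stayed between 0.75 and 0.80 when libraries were left out and was 0.84 with a pseudocount of 0.5. The 41 genes, chosen on all 12 libraries, were kept the same here, so that this is no test of the step. The step in left-out libraries had a median of 1.51 to 1.67 for whole replicate numbers. For single libraries, where the other side of the ratio had been used to choose the genes, it was 1.61 to 2.07. With a later library left out, the mean of H1 was divided by that library alone, and not by the average of the later stages. With an H4 library left out it was 1.87, 2.07 and 2.01, where the median of all genes tested was 1.04, 1.07 and 1.05. The fold in the libraries used (1.86, 1.85 and 1.86) is another ratio, and no comparison is drawn with it.

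Members called lower numbered 26 to 35 at H1–H2, 32 to 36 at H1–H3 and 34 to 40 at H1–H4 when libraries were left out. Over all genes tested the lower calls were then 432 to 722, 806 to 1205 and 3179 to 3866. With a filter of 5 CPM only 30 members were tested, of which 29 were called lower at H1–H2 (773 of all 17830 genes tested). Calls were 2 to 7 at H2–H3, 1 to 4 at H3–H4 and 3 to 10 at H2–H4 on leaving out libraries. Over all genes tested they were 687 to 1507, 3242 to 5485 and 5095 to 7172. Without the filter on low counts 1 member was called at H3–H4 (4320 of all 30839 genes tested), and DESeq2 called 3 at H2–H4 (5491 of 23155). The cause was not tested. A count of calls cannot reverse, and the sign of the step was fixed by the choice of the genes, so that neither tests for a reversal. The direction of most calls at H3–H4 did depend on scaling. With TMM or median-ratio scaling 1 of 3 calls was lower, and with total-count scaling 3 of 4 were.

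The replicate numbers are shared between stages by number alone. The deviations of same-numbered libraries correlated by -0.04 to 0.24 across genes, over 0.1 in 4 of 18 pairs of stages. With the replicate block 32, 35 and 37 members were called lower at H1–H2, H1–H3 and H1–H4, and 6, 4 and 6 were called at H2–H3, H3–H4 and H2–H4. Over all genes tested the block gave 687, 1109 and 3688 lower calls, and 1133, 4557 and 6352 calls. Depth limits the members under 5 CPM, whose later libraries held 0 to 27 counts.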
